A study of Sus scrofa with 9 samples.

Results

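The livers of Wujin piglets fed a high-iron diet were compared with the livers of piglets fed a low-iron diet, which is the widest contrast of the study. Its libraries were all those labelled with either diet, 6 of the 9 sequenced: low-iron 2, 3 and 7 and high-iron 2, 7 and 8, each from 1 pig and named by the animal number in its label. The compared genes were the 12584 of 25918 in the table with a mean FPKM (fragments per kilobase of transcript, scaled to the mapped fragments of the library) of at least 0.5 over the 9 libraries. All piglets were of the Wujin breed with no genetic modification described, were 35 days old at the start, were housed singly, and received the same basic diet during a prefeeding of 5 days and a trial of 30 days. The basic diet held 0 mg/kg of added iron in the low-iron group, 100 mg/kg in the control group and 200 mg/kg in the high-iron group, added as iron glycinate. The low-iron diet was therefore not free of iron, since the feed ingredients brought their own. The 3 control libraries (4, 5 and 6) are given beside the comparison and shared in the estimate of the spread, but no difference from them was tested.

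The 9 libraries were alike in the sum of FPKM over all genes, from 416922 to 456420, and in the number of genes above 0, from 16235 to 17817. The deposited values hold no read counts per gene, so no counting error could be given for a value, and precision rests on the 3 livers of a group. The read totals listed with the study, highest in a pair of high-iron libraries and overlapping between the diets, were not used here. Sex was not in the labels. EIF1AY, a gene of chromosome Y, measured 15.2, 0 and 21.7 FPKM in low-iron 2, 3 and 7, 15, 0 and 20.2 FPKM in control 4, 5 and 6, and 0, 26.5 and 0 FPKM in high-iron 2, 7 and 8. The Y-linked gene was thus above 0 in 2 of the 3 low-iron and 1 of the 3 high-iron livers. Fits with EIF1AY as a covariate are given for some of the results only. The hepatocyte markers summed to between 88574 and 111665 FPKM in every library. Whole liver was sequenced, so fewer cells of a type and less RNA per cell cannot be told apart in any value below.

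Genes were called where the fold change was at least 2 and the unadjusted limma p-value was under 0.05, the study's own thresholds. This held for 194 genes, 1.54% of those tested, with 127 higher (1.01%) and 67 lower (0.532%) in the high-iron livers. Of the called genes, 121 had a gene symbol, 20 had only a LOC number and 53 were new genes without a name. No gene passed a Benjamini-Hochberg adjusted limma p-value of 0.05, and 900 genes (7.15%) had an unadjusted p under 0.05. By sign alone 53.6% of the tested genes were higher and 46.4% lower. The smallest adjusted limma p-value was 0.200, for LOC396781, followed by 0.275 for BLOC1S5 and by values from 0.409 upward for every other gene. With each of the 9 libraries left out in turn, 54 of the 194 remained called in every fit, 42 higher and 12 lower. Of the genes named here or below these were LOC396781, BLOC1S5, CAPG, MRPL43, LAX1, BCL2L14, F13A1, CCR2, TECTB, ASAP3, ABRACL, C7H6orf52, ADAD1 and COL1A1 among the higher. Among the lower they were PPP1R1B, NDUFAF4, ETNPPL, GNL3, CTPS1 and TFAP4. LOC396781 measured 6.58, 6.57 and 8.11 FPKM in low-iron 2, 3 and 7, and 26.7, 18.5 and 36.4 FPKM in high-iron 2, 7 and 8. Every other called gene named here or below fell short of a threshold without at least 1 library. Some named genes share bases with another annotated gene, and strand use in the libraries was not stated, so their reads cannot be assigned with certainty. Of the called genes these were LOC396781, MRPL43, FEZ2, F13A1, TECTB, ABRACL, CHL1, ADAD1, FARSB, GNL3, CTPS1, TIMP1, ISG15, POLR1C and DHODH. Of the others they were CIAO1, MMS19, HMOX2, HIF1A, NDRG1, SCARA5, KMO, HAL, HNF4A, NDUFA2, NOP56, NSUN2, IFIT3, OAS1 and SLA-DMB. Below, "higher" and "lower" without further words describe a difference in the mean of log2(FPKM + 0.1), and a gene is said to have passed where its unadjusted p was under 0.05.

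Liver is the main store of body iron and the source of hepcidin, the peptide hormone that lowers iron export into plasma by removing ferroportin from cell surfaces. Hepcidin transcription follows BMP6, a ligand made by liver endothelial cells, through BMP receptors and SMAD proteins, and follows inflammation through another pathway. Inside cells, iron regulatory proteins bind short stem-loops called iron-responsive elements (IREs) when iron is scarce. Binding after the coding part protects the mRNA of the transferrin receptor from decay, whereas binding before the coding part blocks translation of ferritin and ferroportin without a need for a change in mRNA level.

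The IREs are shown because they separate the iron genes whose mRNA level can follow iron from those that are controlled mainly in translation. The stem-loop was searched as CNNNNNCAGTGN followed by 5 bases able to pair with the 5 bases after the first C, with G-T pairs allowed. The annotated TFRC model ended 53 bases after its coding part, so the 3000 bases after the annotated end were searched, on Sscrofa11.1 and on the + strand of chromosome 13. They held 4 such stem-loops, and TFRC was the only 1 of 20610 genes with that many, while 330 genes (1.60%) held at least 1. Each line gives 29 bases 5′ to 3′ with the 6-base loop in capitals.
TFRC chr13:133998466-133998494: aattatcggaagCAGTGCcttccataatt
TFRC chr13:133998876-133998904: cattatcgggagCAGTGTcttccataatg
TFRC chr13:133998941-133998969: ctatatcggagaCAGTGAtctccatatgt
TFRC chr13:133998988-133999016: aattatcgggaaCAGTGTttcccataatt

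The same search in the annotated untranslated parts of the longest mRNA found an element in 176 of 20652 transcripts (0.852%). The ferritin heavy and light chains and ferroportin (SLC40A1) were among them, each with the element before its coding part. These 3 elements are printed on the strand of their gene, + for FTH1 and FTL and − for SLC40A1.
FTH1 chr2:9535175-9535203: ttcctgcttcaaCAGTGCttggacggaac
FTL chr6:54231194-54231222: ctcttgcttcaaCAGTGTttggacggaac
SLC40A1 chr15:94161660-94161688: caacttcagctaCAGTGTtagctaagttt

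TFRC, which encodes the transferrin receptor that takes up transferrin-bound iron, lies at chr13:133976765-133997554 on the + strand. It measured 87.9, 129.8 and 28.6 FPKM in low-iron 2, 3 and 7, and 40.6, 15.9 and 18.5 FPKM in high-iron 2, 7 and 8. The low-iron livers held the highest values, but the groups overlapped, because high-iron 2 lay above low-iron 7. The log2 fold change was -1.59 with a standard error of 0.56, a 3.0-fold lower level in high iron, and TFRC was the only called gene among those of iron uptake. Its limma p-value adjusted over all genes by Benjamini-Hochberg was 0.640, and an exact two-sided permutation test over the 20 ways to assign the 6 libraries to 2 groups of 3 gave p = 0.2, where 0.1 is the smallest that design allows. The control livers did not lie between the 2 diets: they measured 6.51, 17 and 7.51 FPKM, with control 4 and 6 below every high-iron liver and control 5 among them. Without low-iron 3 the log2 fold change was -1.13 and TFRC no longer passed, and with EIF1AY as a covariate it was -1.94.

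Red cell precursors also express TFRC, so their genes are given beside it. HBB, the beta chain of haemoglobin, measured 1409, 470.1 and 2433 FPKM in low-iron 2, 3 and 7 and 828, 527 and 349 FPKM in high-iron 2, 7 and 8 (log2 fold change -1.13, standard error 0.72, not passed). ALAS2, the erythroid enzyme that opens haem synthesis, measured 15, 5.5 and 12.4 against 10.01, 4.20 and 2.05 FPKM in the same order. Both were lowest within the low-iron group in low-iron 3, where TFRC was highest. Of the 19 erythroid markers listed, 5 passed the filter, TFRC among them, and the erythroid factor KLF1 was listed at 0 in every library. The part of the erythroid RNA in the TFRC difference was not tested. The table also lists EPO, the hormone that drives red cell production, at 0.0929 and 0.604 FPKM in low-iron 2 and 3 and at 0 in low-iron 7 and in all control and high-iron libraries, below the filter.

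HAMP, which encodes hepcidin, lies at chr6:44785863-44787303 on the + strand. It measured 3.84, 2.02 and 70.5 FPKM in low-iron 2, 3 and 7, and 52.3, 6.87 and 21.8 FPKM in high-iron 2, 7 and 8. A pair of low-iron livers lay below every high-iron liver, and low-iron 7 held the highest value of all 9. The log2 fold change was 1.25 with a standard error of 1.14 (exact permutation p = 0.5), so the difference was smaller than the spread allowed to resolve. The control livers measured 50.3, 42.0 and 16.2 FPKM. Without low-iron 7 the log2 fold change was 2.79 and passed, so that 1 library decided the result. Low-iron 7 was also the low-iron liver with the lowest TFRC, at 28.6 FPKM.

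BMP6, the ligand upstream of hepcidin, was lower in the high-iron livers and passed. It measured 12.7, 7.47 and 6.48 FPKM in low-iron 2, 3 and 7, and 4.75, 4.32 and 4.71 FPKM in high-iron 2, 7 and 8, without overlap. The log2 fold change was -0.88 with a standard error of 0.28, a 1.83-fold lower level (limma adjusted p = 0.615). The control livers lay with the high-iron livers, at 5.97, 5.11 and 3.48 FPKM. Of 17 endothelial markers, 12 were higher in high iron and 3 passed as higher (17.6%, against 4.03% of all genes). Their summed levels were 354 to 432 FPKM in the low-iron and 419 to 499.9 FPKM in the high-iron livers, the direction opposite to BMP6. BMP6 was the only 1 of 23 tested genes of the hepcidin and BMP/SMAD list to pass (4.35%, against 3.12% of all genes that passed as lower). The median of that list on the log2 scale, 0.03, equalled the 0.03 over all tested genes.

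The other iron transporters moved less. SLC39A14 (ZIP14), which brings non-transferrin iron and zinc into hepatocytes, measured 84.7, 173 and 77.9 FPKM in the low-iron livers and 88.6, 41.0 and 55.1 FPKM in the high-iron livers (log2 fold change -0.84, standard error 0.35, limma adjusted p = 0.686). The groups overlapped, since high-iron 2 lay above low-iron 2 and 7. TFRC and SLC39A14 were the 2 of 15 tested genes of iron uptake that passed, both lower, against 3.12% of all genes that passed as lower, and the list had a median of -0.07. Without low-iron 3 none of the 15 passed as lower. SCARA5, a ferritin receptor, had a log2 fold change of -0.70 (standard error 0.34), and SLC11A2, the divalent metal transporter DMT1, of -0.52 (standard error 0.29), and neither passed. CYBRD1, a ferric reductase, did not overlap between the groups, at 6.38, 9.34 and 9.15 against 10.8, 9.82 and 12.7 FPKM, but its log2 fold change of 0.43 did not pass.

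None of the 7 tested genes of iron storage and export passed. SLC40A1, which encodes ferroportin, the iron exporter, was nearest: it measured 160.0, 164 and 145 FPKM in low-iron 2, 3 and 7, and 207, 187 and 209.8 FPKM in high-iron 2, 7 and 8. Every high-iron liver lay above every low-iron and control liver (log2 fold change 0.37, standard error 0.18). FTH1, the ferritin heavy chain, measured 2862, 2024 and 2397 FPKM in the low-iron livers and 1449.6, 2094 and 1926 FPKM in the high-iron livers (log2 fold change -0.42, standard error 0.26). FTL, the light chain, had a log2 fold change of -0.18 with a standard error of 0.27. Ferritin genes have processed copies elsewhere in mammalian genomes that can share reads, so their levels are uncertain to that extent.

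**Figure D1:**
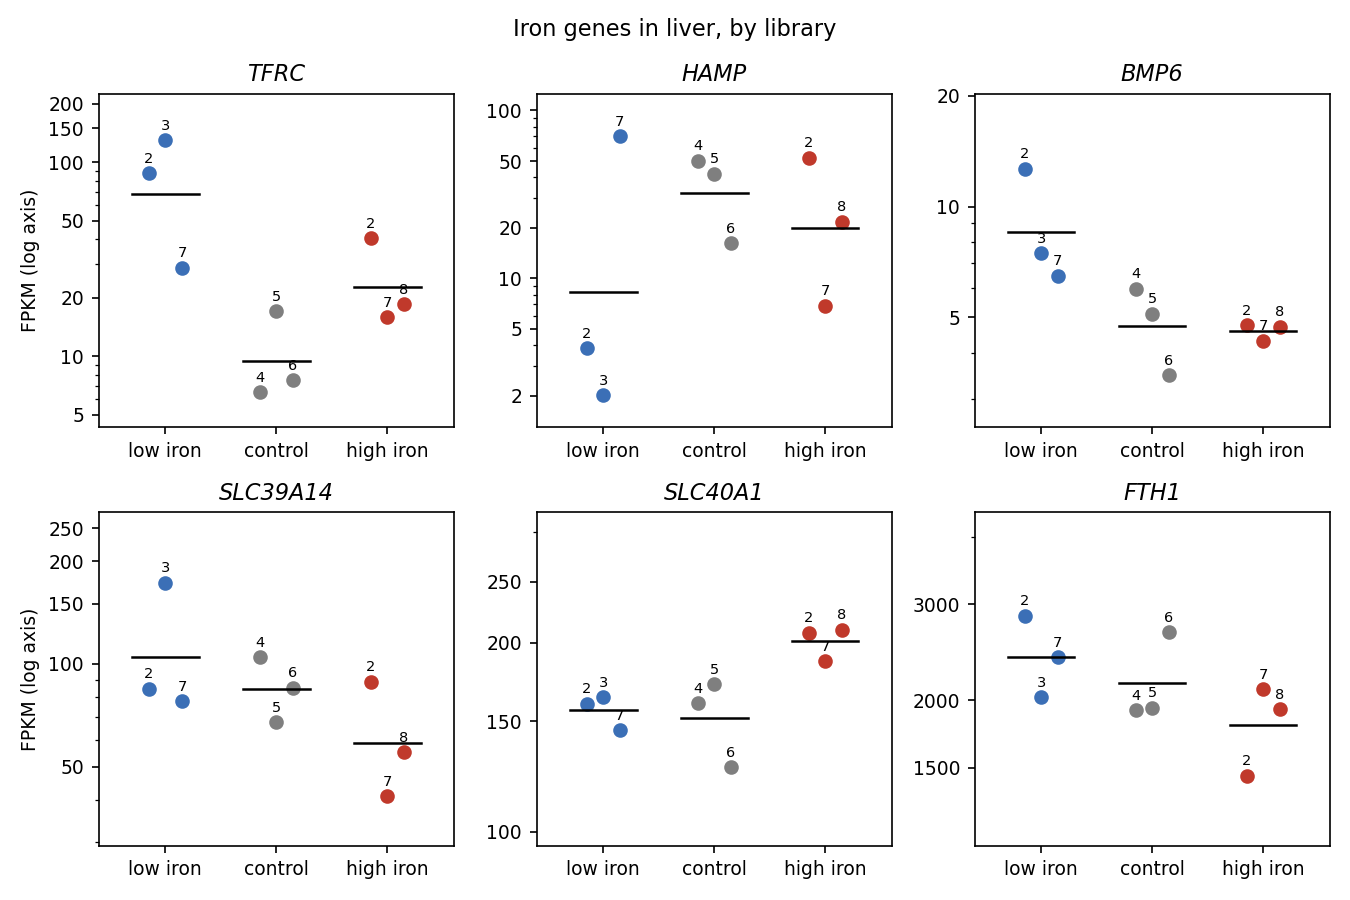
FPKM on a log axis of TFRC, HAMP, BMP6, SLC39A14, SLC40A1 and FTH1 in each of 9 liver libraries, with the animal number beside each point and a line at the group mean of log2(FPKM + 0.1). BMP6 and SLC40A1 separate the low-iron from the high-iron points, whereas TFRC overlaps through low-iron 7 and high-iron 2, and HAMP through low-iron 7.

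Haem and iron-sulfur genes leaned low without calls. In haem synthesis 7 of 8 tested genes were lower and none passed (median -0.17), but without low-iron 7 the split was 4 of 8 and the median -0.01, and without low-iron 3 a total of 3 passed as lower. In mitochondrial iron handling and iron-sulfur assembly 20 of 23 were lower, with a median of -0.15, and 2 passed (8.70%, against 3.12% of all genes that passed as lower). Without low-iron 7 the median was -0.07 and 15 were lower. These were CIAO1, at 11.09, 11.9 and 12.6 against 7.88, 9.75 and 9.06 FPKM in the low-iron and high-iron livers (log2 fold change -0.42, standard error 0.16), and MMS19, at 4.63, 4.05 and 5.11 against 2.77, 3.51 and 3.13 FPKM (-0.54, standard error 0.22). Both encode parts of the cytosolic machinery that delivers iron-sulfur clusters to proteins, and neither overlapped between the groups, though none of the 23 passed without low-iron 7, high-iron 2 or high-iron 8. HMOX2, the constitutive haem oxygenase, alone passed of 12 genes of haem scavenging and breakdown, at -0.37 (8.33%, against 3.12% of all genes that passed as lower). Of 29 hypoxia-induced genes NDRG1 alone passed, at 0.67 (3.45%, below the 4.03% of all genes that passed as higher). HIF1A had a log2 fold change of 0.38 and did not pass.

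Many genes of ribosome assembly were lower in the high-iron livers. Making a ribosome needs RNA polymerase I, small nucleolar ribonucleoproteins that modify the rRNA, and a long series of factors that cut, fold and export the subunits. Of 81 tested genes of ribosome biogenesis, 77 were lower in the high-iron livers, with a median log2 fold change of -0.42 beside 0.03 over all tested genes. A total of 30 (37.0%) passed, all lower, against 3.12% of all genes that passed as lower, and 32 (39.5%) did not overlap between the groups, against 5.13% of all genes. This list was written after lower genes of ribosome assembly had been seen at the top of the ranking, so its counts are a description and no test. The mean of log2(FPKM + 0.1) over the list was 2.77, 3.03 and 3.17 in low-iron 2, 3 and 7, 2.49, 2.83 and 2.56 in the control livers, and 2.51, 2.53 and 2.51 in high-iron 2, 7 and 8. The high-iron livers were closely alike, and all 3 lay below every low-iron liver.

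Among the members, BYSL, needed for maturation of the small subunit, had the smallest p. It measured 17.4, 14.1 and 15.7 FPKM in low-iron 2, 3 and 7, and 7.36, 8.76 and 8.82 FPKM in high-iron 2, 7 and 8, without overlap (log2 fold change -0.91, standard error 0.18, limma adjusted p = 0.465). MRTO4, an assembly factor of the large subunit, measured 14.4, 14.3 and 18.4 against 7.53, 9.62 and 5.29 FPKM (-1.09, standard error 0.24). The control livers lay between the groups or within the high-iron range for both, at 9.61, 12.5 and 10.9 FPKM for BYSL and 8.69, 8.58 and 12.1 FPKM for MRTO4.

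GNL3, which encodes nucleostemin, a nucleolar GTPase, was called with the largest difference of the list. It measured 22.7, 30.1 and 34.3 FPKM in low-iron 2, 3 and 7, 6.68, 28.1 and 11.2 FPKM in the control livers, and 12.3, 8.29 and 8.25 FPKM in high-iron 2, 7 and 8. The high-iron values lay below all low-iron values (-1.59 on the log2 scale, standard error 0.43, limma adjusted p = 0.573), while control 5 lay among the low-iron livers. GNL3 overlaps PBRM1 in the annotation. With MRTO4 the other called members were URB2 (-1.05), GPATCH4 (-1.03) and POLR1C, a subunit shared by RNA polymerases I and III (-1.02).

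The remaining members that passed had log2 fold changes from moderate to near 1 below 0. PES1, of the PeBoW complex of the large subunit, measured 28, 27 and 31.5 against 21.2, 17.8 and 15 FPKM in the low-iron and high-iron livers. DKC1, the pseudouridine synthase of box H/ACA ribonucleoproteins, measured 10.6, 12.8 and 17.5 against 7.09, 7.31 and 7.35 FPKM. Neither overlapped. The box C/D proteins NOP56 (-0.66) and FBL (-0.60), the acetyltransferase NAT10 (-0.59), the export factor RRP12 (-0.83) and the small-subunit factors PNO1 (-0.68) and IMP3 (-0.74) also passed. The 4 members on the other side had log2 fold changes of at most 0.14 and none of them passed.

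The 53 cytosolic ribosomal proteins themselves had a median of -0.01, with 22 higher and 31 lower and none that passed. That split turned to 41 higher and 12 lower after quantile normalization. With EIF1AY as a covariate it was 45 higher and 8 lower, so no direction can be given for them. In the ribosome biogenesis list the median stayed between -0.58 and -0.38 with each library left out in turn, and between 21 and 33 members passed as lower. With EIF1AY as a covariate the median was -0.47 and 36 passed as lower. Since lower genes of ribosome assembly prompted the list, its direction in these refits was largely set by that choice.

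Genes that modify and charge tRNA were lower as well. METTL1 and WDR4 encode the catalytic subunit and its partner in the enzyme that places 7-methylguanosine in tRNA, and both were called. METTL1 measured 7.07, 7.67 and 9.16 FPKM in low-iron 2, 3 and 7, and 4.08, 4.22 and 3.16 FPKM in high-iron 2, 7 and 8 (log2 fold change -1.04, standard error 0.23, limma adjusted p = 0.521). WDR4 measured 2.74, 3.72 and 3.67 against 1.57, 0.875 and 2.22 FPKM (-1.14, standard error 0.32, limma adjusted p = 0.612). Neither gene overlapped between the diets. Of 30 tested genes of tRNA modification 25 were lower (median -0.31), 7 passed as lower (23.3%, against 3.12% of all genes) and none as higher, with 4 that passed as lower without low-iron 7 or high-iron 7. The others included TRMT2A (-0.82) and NSUN2 (-0.76), methyltransferases for uridine and cytosine.

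Of 20 aminoacyl-tRNA synthetases, 18 were lower, with a median of -0.18. FARSB, the beta subunit of the phenylalanine enzyme, was called at -1.03, and FARSA, its alpha subunit, passed at -0.62. FARSB measured 11.8, 13.1 and 15.5 against 4.80, 7.37 and 7.86 FPKM in the low-iron and high-iron livers, with the control livers between at 7.87, 10.9 and 9.64 FPKM. Of the synthetases 3 passed as lower (15%, against the same 3.12%), and 1 did without low-iron 3. The lists of tRNA modification and of synthetases were also written after results had been seen.

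Nucleotide synthesis held a further 3 called genes among 25 tested, all lower, beside 0.532% of all genes called lower. CTPS1 makes CTP from UTP. It measured 1.08, 1.59 and 3.06 FPKM in low-iron 2, 3 and 7, and 0.253, 0.773 and 0.591 FPKM in high-iron 2, 7 and 8 (-1.63 on the log2 scale, standard error 0.46, limma adjusted p = 0.612). PFAS, of the purine pathway, measured 1.43, 1.22 and 2.05 against 0.331, 0.784 and 0.844 FPKM (-1.20, standard error 0.37). DHODH, the mitochondrial enzyme of pyrimidine synthesis, measured 7.0, 12.7 and 8.08 against 6.68, 1.43 and 4.22 FPKM (-1.35, standard error 0.50). The groups did not overlap for any of the 3, though DHODH in high-iron 2 lay close below low-iron 2. Over the list 6 of 25 genes (24%) were lower without overlap, against 5.13% of all genes. UMPS, the enzyme after DHODH in the pathway, passed at -0.48, and 20 of 25 tested genes of purine and pyrimidine synthesis were lower (median -0.22) and 4 passed (16%, against 3.12% of all genes that passed as lower), in a list written after results had been seen. Without high-iron 7 the log2 fold change of DHODH was -0.74 and without low-iron 3 it was -1.10, and in neither fit did it pass.

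Promoters were searched for the E-box CACGTG, which is the same on both strands and is the core site of MYC and related factors. In the 250 bases before the annotated start it stood in 4 of 81 ribosome biogenesis genes (4.94%) and in 5 of 25 genes of purine and pyrimidine synthesis, beside 906 of 11688 tested genes (7.75%). TFAP4, a factor that binds another E-box, was itself called lower, at 1.48, 2.08 and 1.63 against 0.596, 0.506 and 0.698 FPKM (-1.38, standard error 0.41). Of 12 tested genes of the MYC network TFAP4 was the only 1 that passed (8.33%, against 3.12% of all genes that passed as lower). The list had a median of -0.05.

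**Figure D2:**
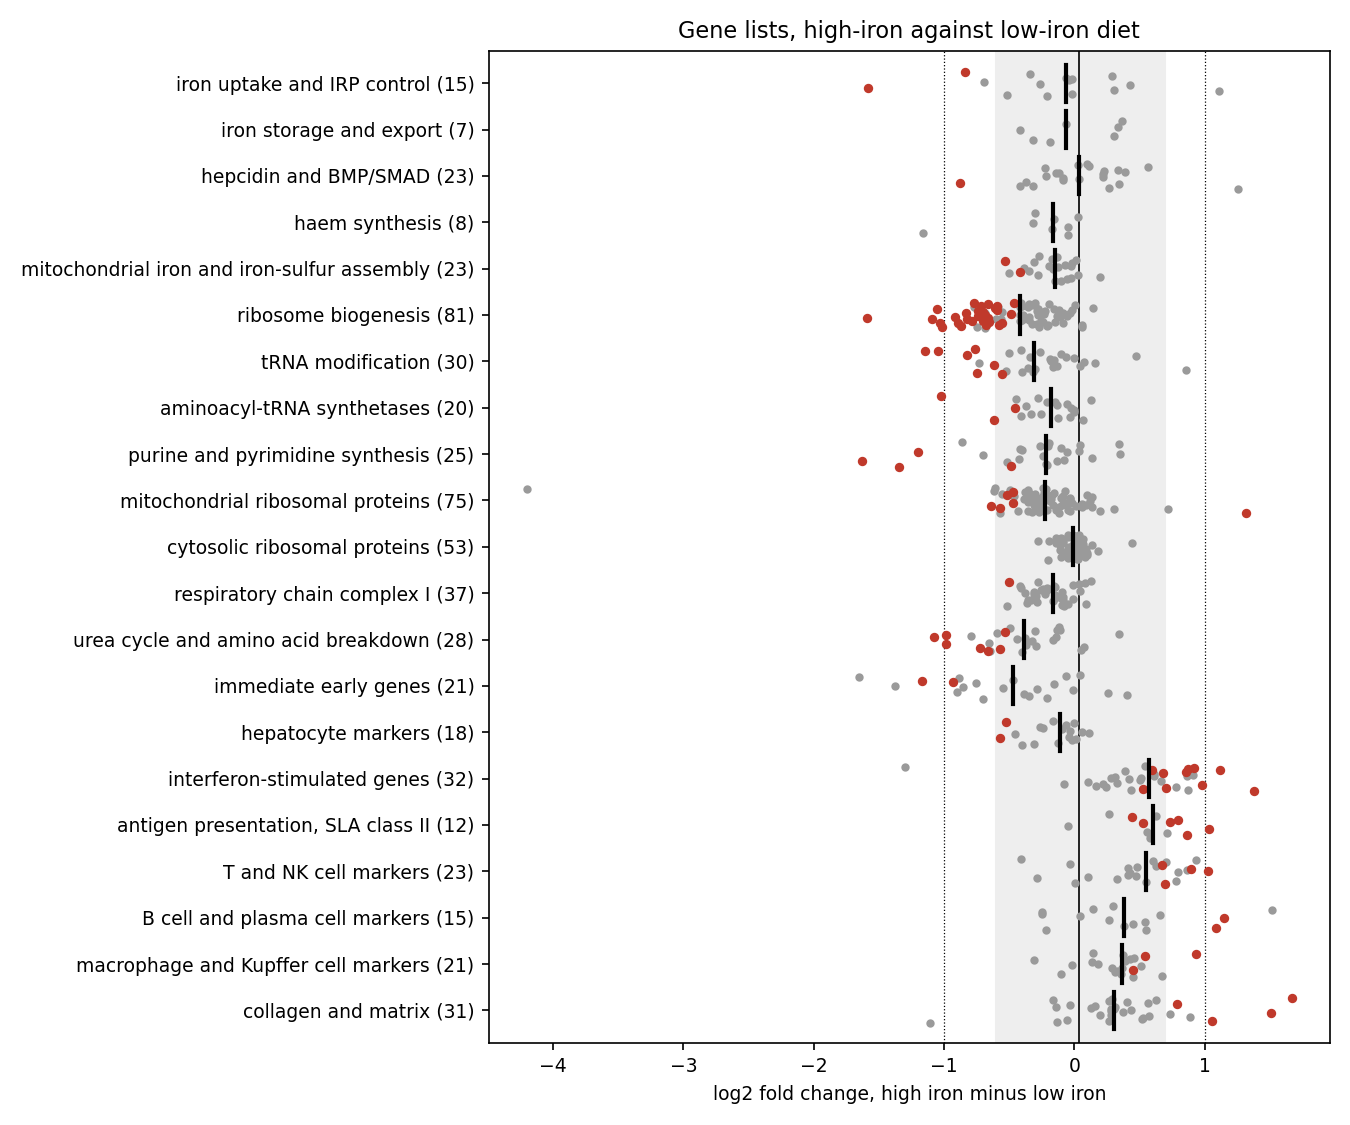
Log2 fold change, high iron minus low iron, of each tested gene in 21 gene lists (number of tested genes in brackets), with genes of unadjusted limma p under 0.05 in red, the others in grey and a bar at each list's median. The solid line is the median of all 12584 tested genes (0.03), the grey band their central 90%, and the dotted lines mark a fold change of 2 in either direction. Ribosome biogenesis lies to the left with 30 red points, and the interferon-stimulated genes to the right with 10.

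Genes of amino acid breakdown were lower in high iron, ARG1 most clearly among them. ARG1, the arginase that closes the urea cycle in hepatocytes, lies at chr1:32006035-32028983 on the − strand. It measured 746, 599 and 799 FPKM in low-iron 2, 3 and 7, 784, 566 and 890.1 FPKM in control 4, 5 and 6, and 279, 454 and 298 FPKM in high-iron 2, 7 and 8. The low-iron and control livers shared 1 range, and all 3 high-iron livers lay below it, by a difference of -1.08 on the log2 scale (standard error 0.26, limma adjusted p = 0.539). CPS1, the first enzyme of the cycle, passed at -0.57 with overlap between the groups, at 792, 493 and 640.3 against 331, 449 and 513 FPKM.

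Of 28 tested genes of the urea cycle and amino acid breakdown, 25 were lower (median -0.39), and 7 passed, all lower (25.0%, against 3.12% of all genes). HGD, of tyrosine breakdown, had a log2 fold change of -0.72, KMO, of the kynurenine pathway, of -0.98, HAL, of histidine breakdown, of -0.99, and CBS, of the transsulfuration pathway, of -0.53. CBS and ARG1 alone of the 7 did not overlap between the groups. They were also the only 2 of the 28 to be lower without overlap (7.14%, near the 5.13% of all genes). The list's median ranged from -0.62 without low-iron 3 to -0.26 without low-iron 7, and was -0.27 with EIF1AY as a covariate. The number that passed ranged from 2 without high-iron 2 to 10 without low-iron 3, so 1 library moved this count severalfold.

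ETNPPL, which breaks down phosphoethanolamine and is abundant in liver, was called lower outside these lists. It measured 208, 188 and 342 FPKM in low-iron 2, 3 and 7, 72.8, 193 and 124 FPKM in the control livers, and 126, 87.4 and 57.7 FPKM in high-iron 2, 7 and 8 (log2 fold change -1.46, standard error 0.39, limma adjusted p = 0.573). The low-iron and high-iron livers did not overlap. PHGDH, which opens serine synthesis, passed at -0.74, with 36.8, 22.6 and 30.2 against 18.6, 20.3 and 14.1 FPKM. HNF4A, a master factor of hepatocyte genes, passed at -0.53, at 63.5, 96.3 and 102 against 58.7, 55.8 and 63.4 FPKM. Beside these stand the hepatocyte markers as a whole: 15 of 18 were lower, beside 46.4% of all genes, by a median of -0.11. CPS1 and HNF4A were the 2 that passed, against 3.12% of all genes that passed as lower. Of the 18 markers 2 were lower without overlap, against 5.13% of all genes. The part of hepatocyte content in these differences was not tested.

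Mitochondrial genes leaned low by small amounts. Of 37 tested genes of complex I, 32 were lower (median -0.17). NDUFA2 alone passed, at -0.50 (2.70%, against 3.12% of all genes that passed as lower). Of 25 genes of complexes II to V, 23 were lower (median -0.21) and none passed, with a median of -0.04 without low-iron 7. Of 75 mitochondrial ribosomal proteins, a list written after results had been seen, 63 were lower (median -0.23). In this list 5 passed as lower (6.67%, against 3.12% of all genes) and 1 as higher (1.33%, against 4.03%). Without high-iron 2 its median was -0.07. These leanings rested on single livers: the complex I median was -0.02 without low-iron 7, with 20 of 37 lower, and -0.09 with EIF1AY as a covariate. NDUFAF4, an assembly factor of complex I, was called at 2.30, 3.36 and 4.16 against 1.04, 1.21 and 1.78 FPKM (-1.22, standard error 0.32). TIMM8A, a chaperone of mitochondrial import, was called at 17.2, 16.1 and 28.6 against 7.93, 10.9 and 10.5 FPKM (-1.03, standard error 0.30). Both were without overlap.

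The opposite direction was held by interferon-stimulated genes. Interferons act on promoter elements built from GAAA repeats and raise a set of antiviral genes. Of 32 tested genes of this list, 30 were higher in the high-iron livers, with a median log2 fold change of 0.57 beside 0.03 over all genes. A total of 10 passed (31.3%), all higher, against 4.03% of all genes that passed as higher, and 8 (25.0%) did not overlap, against 8.11% of all genes. ISG15 and RSAD2 were called. Their promoters, with that of IFIT3, are shown as examples of the element, searched as GAAANNGAAA on either strand. It stood in 13 of the 32 genes (40.6%) in the 250 bases before the annotated start, overlapping matches included. Over all tested genes it stood in 298 of 11688 (2.55%). Genes of this list are known for that element, so its share follows from the choice of list and says nothing of the diets. The printed promoters are of members that passed, whereas some other holders did not pass. Each line gives those 250 bases on Sscrofa11.1 in the direction of the gene, with matches in capitals, on the + strand for IFIT3 and ISG15 and on the − strand for RSAD2.
IFIT3 chr14:101214480-101214729: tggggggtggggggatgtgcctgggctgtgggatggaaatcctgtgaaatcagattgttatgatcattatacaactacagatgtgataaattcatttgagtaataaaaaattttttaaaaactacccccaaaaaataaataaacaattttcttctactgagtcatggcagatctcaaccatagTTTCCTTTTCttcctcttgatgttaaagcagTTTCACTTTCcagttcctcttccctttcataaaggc
ISG15 chr6:63362951-63363200: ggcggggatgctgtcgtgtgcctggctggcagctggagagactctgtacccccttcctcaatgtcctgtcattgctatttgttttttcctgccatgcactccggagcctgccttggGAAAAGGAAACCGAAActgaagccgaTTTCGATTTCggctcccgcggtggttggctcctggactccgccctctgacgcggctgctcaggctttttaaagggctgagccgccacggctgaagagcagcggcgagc
RSAD2 chr3:128897810-128898059: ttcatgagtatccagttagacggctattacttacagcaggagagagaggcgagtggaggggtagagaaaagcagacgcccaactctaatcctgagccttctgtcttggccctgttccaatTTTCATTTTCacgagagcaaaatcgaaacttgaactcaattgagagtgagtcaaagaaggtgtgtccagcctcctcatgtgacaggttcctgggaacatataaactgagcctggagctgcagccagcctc

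IFIT3, which acts in a complex that binds viral RNA, had the smallest p of the list. It measured 9.79, 10.8 and 7.34 FPKM in low-iron 2, 3 and 7, 8.27, 8.93 and 11.6 FPKM in the control livers, and 13.8, 15.7 and 15.6 FPKM in high-iron 2, 7 and 8. All 3 high-iron livers lay above the other 6, by 0.70 on the log2 scale (standard error 0.20, limma adjusted p = 0.612). OAS1, which makes the activator of RNase L, measured 9.43, 8.56 and 8.61 against 14.2, 11.6 and 26.4 FPKM (0.87, standard error 0.26), and PSMB9, an immunoproteasome subunit, 4.75, 5.76 and 3.92 against 6.67, 7.31 and 9.19 FPKM (0.68, standard error 0.21). Neither overlapped.

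The called pair overlapped because low-iron 3 stood high. ISG15, a ubiquitin-like modifier, measured 3.81, 16.6 and 4.30 FPKM in low-iron 2, 3 and 7, and 10.8, 24.8 and 18.5 FPKM in high-iron 2, 7 and 8 (1.38, standard error 0.50, limma adjusted p = 0.640). ISG15 did not pass without low-iron 2, low-iron 7 or high-iron 7, nor RSAD2 without these, control 6 or high-iron 8. RSAD2, which encodes viperin, measured 2.85, 6.35 and 1.44 against 4.34, 6.06 and 10.9 FPKM (1.12, standard error 0.47, limma adjusted p = 0.686). The mean of log2(FPKM + 0.1) over the list was 3.48, 4.15 and 3.26 in the low-iron livers, 3.81, 3.65 and 3.86 in the control livers, and 3.89, 4.28 and 4.32 in the high-iron livers, so that low-iron 3 lay above high-iron 2. The list's median was 0.83 without low-iron 3, with 20 genes that passed, and 0.38 without low-iron 7, with 3 that passed. With EIF1AY as a covariate it was 0.48 and 7 passed.

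Antigen-presenting genes of SLA class II, the pig's MHC, were higher too. Of 12 tested genes 11 were higher (median 0.60), 6 passed, all higher (50%, against 4.03% of all genes that passed as higher), and 5 did not overlap (41.7%, against 8.11%). SLA-DMB, which helps load peptides, measured 10.02, 10.6 and 9.75 FPKM in low-iron 2, 3 and 7, and 27.1, 13 and 18 FPKM in high-iron 2, 7 and 8 (0.86, standard error 0.25, limma adjusted p = 0.612). SLA-DOA was called at 0.512, 0.372 and 0.417 against 0.627, 0.885 and 1.69 FPKM (1.03, standard error 0.46), and CD74, the invariant chain, passed at 97.4, 113 and 102 against 144, 118 and 199 FPKM (0.53, standard error 0.23). All 3 were without overlap. SLA-DOA, at levels near the filter, did not pass without low-iron 2, 3 or 7, control 6, or high-iron 7 or 8. Some SLA genes resemble one another in sequence, so reads may have been split among those. Without high-iron 8 the list's median was 0.37 and 1 gene passed.

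Markers of immune cells are given beside these lists, for 3 cell types. Of 23 tested T and NK cell markers, 20 were higher (median 0.55), beside 53.6% of all genes, and 4 passed as higher (17.4%, against 4.03%). The summed level was 54.1 to 61.1 FPKM in the low-iron livers, 53.5 to 70.9 in the control livers and 72.5 to 129.3 in the high-iron livers. CD8A, of cytotoxic T cells, was called at 2.65, 2.33 and 2.90 against 3.94, 4.71 and 8.60 FPKM (1.03, standard error 0.34), and CD4, of helper T cells, passed at 5.32, 3.84 and 3.29 against 10.5, 5.64 and 7.49 FPKM (0.89, standard error 0.29). High-iron 8 held the highest sum, and without it the median was 0.25 and 1 marker passed as higher.

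B cell and plasma cell markers included the called genes BANK1, a B cell scaffold, and JCHAIN, which joins secreted immunoglobulins. BANK1 measured 2.81, 1.90 and 1.85 against 4.52, 4.91 and 4.57 FPKM (1.08, standard error 0.30). JCHAIN measured 10.8, 4.26 and 9.24 against 17.3, 12.1 and 22.6 FPKM (1.15, standard error 0.38). Neither overlapped between the diets, and these 2 alone passed (13.3%, against 4.03% of all genes that passed as higher). Of the 15 tested markers 12 were higher (median 0.38), and their sums overlapped, from 36.0 to 53.9 FPKM in low iron and 50.9 to 69.8 in high iron. Without high-iron 8 the median was 0.09.

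Of 21 macrophage and Kupffer cell markers, 18 were higher (median 0.37), 3 passed (14.3%, against 4.03% of all genes that passed as higher) and 7 did not overlap (33.3%, against 8.11%). Without low-iron 7, high-iron 2 or high-iron 8, 1 passed. VSIG4, a complement receptor of Kupffer cells, measured 22, 22 and 18 FPKM in low-iron 2, 3 and 7, and 30.2, 31.3 and 28.7 FPKM in high-iron 2, 7 and 8 (0.54, standard error 0.16, limma adjusted p = 0.613). CSF1R and CLEC4F, also of this lineage, passed at 0.45 and 0.94. The summed level was 1462 to 1664 FPKM in the low-iron livers and 1729 to 1988 in the high-iron livers. The summed T and NK cell markers and the summed macrophage markers were thus higher in all 3 high-iron livers than in any low-iron liver. On the mean of log2(FPKM + 0.1), to which abundant markers add no more than others, the macrophage markers overlapped, with high-iron 7 at 4.93 and low-iron 3 at 4.99, and those of T and NK cells stood at 1.11 in both low-iron 7 and high-iron 2. The part of either in the interferon and class II results was not tested.

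**Figure D3:**
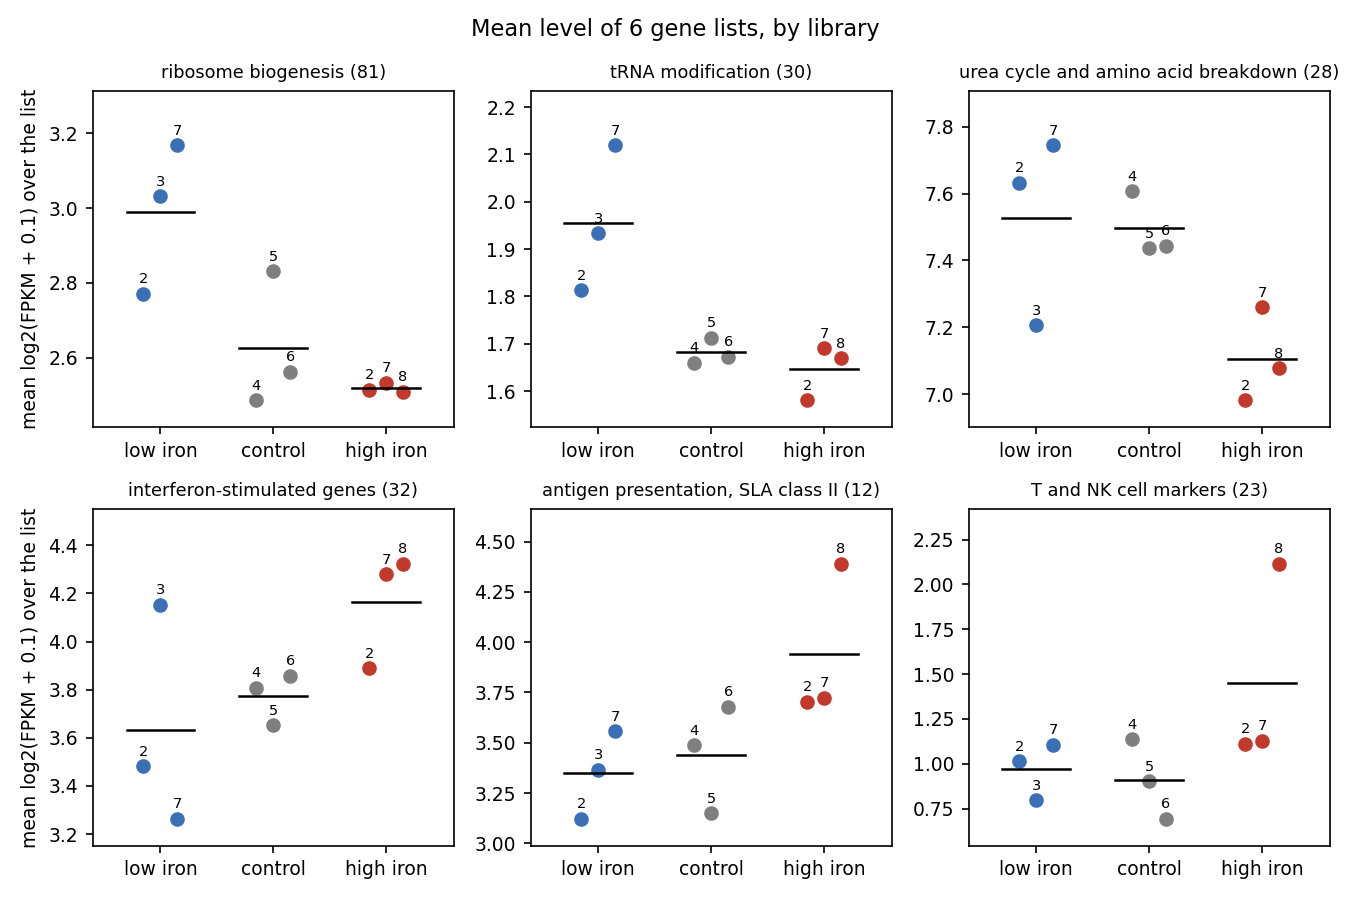
Mean of log2(FPKM + 0.1) over the tested genes of 6 lists (number in brackets) in each library, with the animal number beside each point and a line at the group mean. Ribosome biogenesis separates the high-iron points (2.51 to 2.53) from the low-iron points (2.77 to 3.17), low-iron 3 stands high among the interferon-stimulated genes at 4.15, and high-iron 8 stands high in class II and in T and NK cell markers.

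The 15 higher genes of smallest p had various known roles, and LAX1, CCR2, F13A1 and CAPG are described first, in an order chosen after their values were seen. LAX1, an adaptor of lymphocyte receptors, measured 1.19, 1.59 and 1.81 FPKM in low-iron 2, 3 and 7, and 3.49, 3.23 and 4.61 FPKM in high-iron 2, 7 and 8 (1.25, standard error 0.25, limma adjusted p = 0.467). CCR2, the monocyte chemokine receptor, measured 0.838, 1.29 and 1.07 against 2.10, 3.03 and 2.96 FPKM (1.26, standard error 0.28). F13A1, the A subunit of clotting factor XIII, made by macrophages and megakaryocytes, measured 0.775, 1.01 and 0.785 against 2.55, 2.48 and 1.92 FPKM (1.34, standard error 0.27). In all 3 genes each high-iron liver lay above each low-iron and each control liver. CAPG, an actin-capping protein of macrophages, was called at 1.63 with the same order.

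The called genes of other roles came in both directions. BCL2L14, a relative of the apoptosis regulators, measured 0.214, 0.133 and 0.311 FPKM in the low-iron livers and 1.2, 1.2 and 1.13 FPKM in the high-iron livers (2.04, standard error 0.41), with the control livers between at 0.442, 0.503 and 0.690 FPKM. BLOC1S5, of the BLOC-1 complex of lysosome-related organelles, likewise showed controls between, at 1.72 to 1.93, 2.87 to 3.02 and 3.92 to 4.89 FPKM in low iron, control and high iron (1.26, standard error 0.19). CDC14B, a phosphatase, had a log2 fold change of 1.02, ASAP3, an activator of the small GTPase ARF, of 1.24, CHL1, a cell adhesion protein, of 1.23, and ABRACL of 1.29.

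Of the further higher genes, TECTB, known from the inner ear, had a log2 fold change of 2.78 and C7H6orf52 of 1.41. MRPL43, a mitochondrial ribosomal protein (1.32), FEZ2 (1.16) and ADAD1 (3.08) overlap TWNK, CRIM1 and IL2 in the annotation. Lower genes outside the lists were TNFRSF8, which encodes CD30, at 8.02, 6.72 and 5.67 against 3.15, 2.97 and 3.74 FPKM (-1.02, standard error 0.20), and EMC8, of a membrane protein insertase, at 5.78, 5.19 and 8.39 against 2.32, 3.55 and 3.29 FPKM (-1.05, standard error 0.24). PPP1R1B, a phosphatase inhibitor, measured 2.29, 1.92 and 0.788 against 0.563, 0.148 and 0 FPKM, levels too low for its fold to be read closely.

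**Figure D4:**
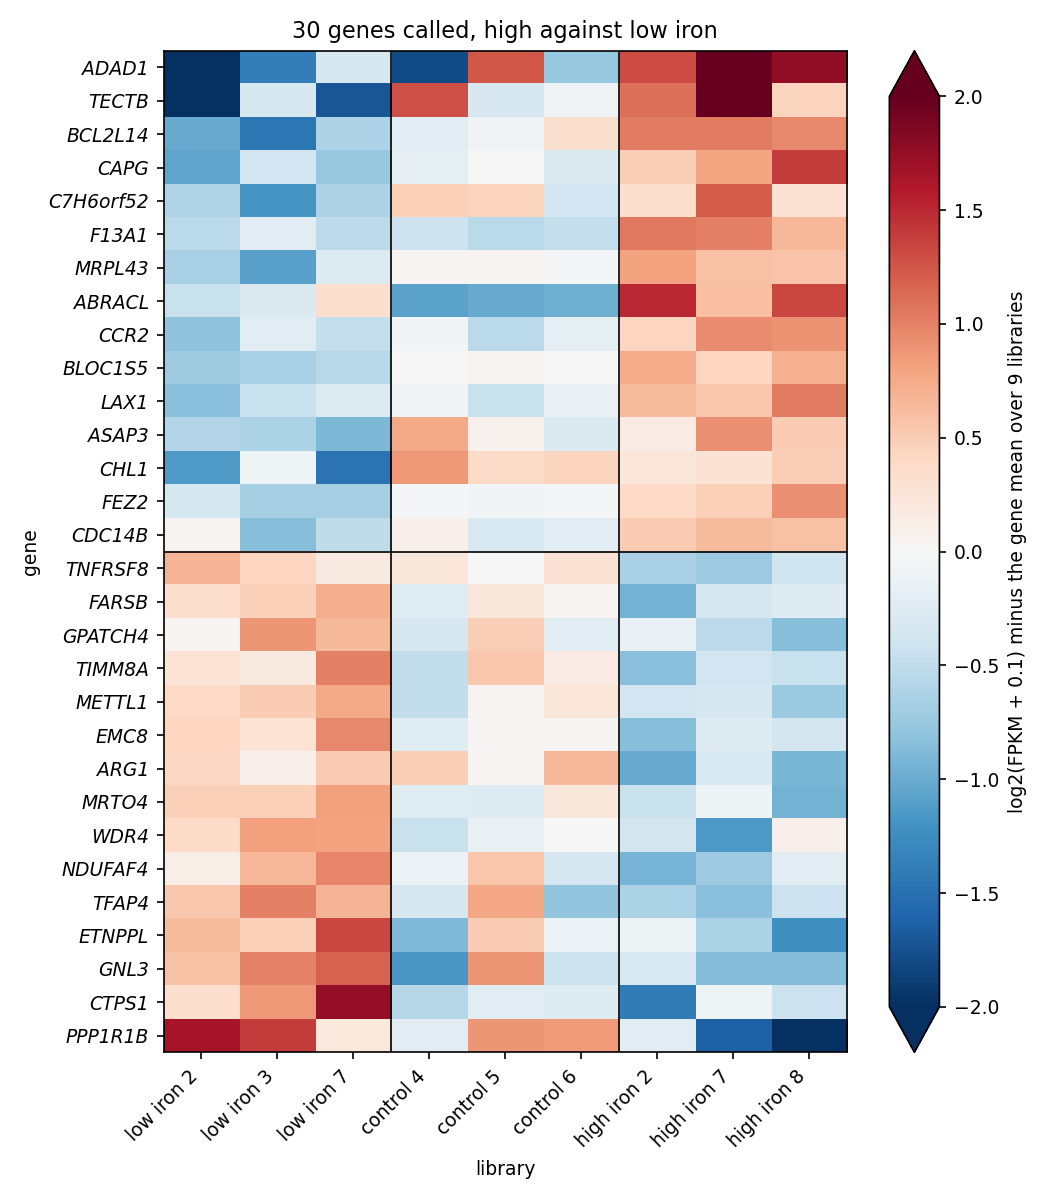
Level of 30 called genes in each library, as log2(FPKM + 0.1) minus the gene's mean over the 9 libraries (red above, blue below, cut at 2 either way), for the 15 genes of smallest p in each direction whose low-iron and high-iron values do not overlap. These genes were chosen for this contrast, so its outer blocks separate by construction, whereas the control livers played no part in the choice beyond the shared spread and vary from gene to gene.

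Immediate early genes, which respond within minutes to stimuli and to tissue handling, were lower. Of 21 tested 18 were lower (median -0.48) and 2 passed (9.52%, against 3.12% of all genes that passed as lower). ATF3 was called at 2.88, 3.87 and 6.91 against 2.53, 1.52 and 1.60 FPKM (-1.17, standard error 0.41), and IER2 passed at 6.35, 9.03 and 9.50 against 3.44, 4.55 and 4.83 FPKM (-0.93, standard error 0.23). Neither overlapped. The mean of log2(FPKM + 0.1) over the list stood highest in low-iron 3, at 3.29 beside 2.04 and 2.36 in the other low-iron livers, and without that liver the median was -0.16. With EIF1AY as a covariate 8 of the genes passed as lower and 6 were called lower, so these counts depended on that term.

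Collagen and matrix genes held 3 called genes among 31 tested, beside 1.01% of all genes called higher. All 3 were higher and all overlapped. COL1A1, of type I collagen, measured 14.7, 39.7 and 12.4 FPKM in low-iron 2, 3 and 7, and 51.3, 30.6 and 108 FPKM in high-iron 2, 7 and 8 (1.51, standard error 0.49, limma adjusted p = 0.615). TIMP1, an inhibitor of matrix proteases, measured 1.98, 6.15 and 1.95 against 4.37, 15.3 and 12.2 FPKM (1.67, standard error 0.55), and COL1A2 had a log2 fold change of 1.05. Low-iron 3 lay within the high-iron range for each of them. Of 31 tested matrix genes 25 were higher (median 0.30) and 4 passed (12.9%, against 4.03% of all genes that passed as higher), with 13 without low-iron 3 and 2 without low-iron 2, and of 17 stellate cell and fibroblast markers 8 were higher (median -0.01).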

How the data were processed

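Liver RNA of 9 Wujin pigs was sequenced, 3 for each diet. The authors trimmed the reads, used HISAT2 for alignment to the Sscrofa11.1 genome and StringTie for assembly, and deposited FPKM for 25918 genes, with no counts and no scaling between libraries stated. FPKM share each library among its genes, so a rise of abundant genes lowers the others. Groups were read from the titles and the series' design, since the treatment label was left blank. Gene numbers were read as positions in annotation release 106 of Sscrofa11.1, where all 20660 numbered genes fall on protein-coding genes, against 15031 when shifted by 1. The other 5258 are new genes without a name.

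Values were tested as log2(FPKM + 0.1) with limma 3.58.1 in R 4.3.3, in 1 fit of the 3 groups (6 residual degrees of freedom) with a mean-variance trend, and p-values were adjusted by Benjamini-Hochberg over all 12584 tested genes. A fold change on this scale understates that of low genes. TFRC and HAMP were also compared by exact permutation (Python 3.11.15, scipy 1.17.1). The procedure was tested on simulated data. The piglets were housed singly, and whether any shared a litter was not stated. The limma p-values set the difference between the diets against a spread pooled over the 3 groups and moderated across genes.

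Genes named are the 15 of smallest p in each direction among called genes with a symbol and no overlap, genes the study measured, members of the iron lists and, of other lists, called members and up to 4 of smallest p. LOC396781, EIF1AY, PHGDH, FARSA, HAL, CPS1, CD74, and the genes of the lists written later were chosen after their values were seen. The members and lists were chosen with earlier results of these data known. The lists of ribosome biogenesis, tRNA modification, synthetases, nucleotide synthesis, the MYC network and mitochondrial ribosomal proteins were written after results had been seen. No gene set test was run. Counts of tested genes are of annotated gene models. In the lists of iron uptake, interferon-stimulated genes, hepatocyte markers and T and NK cell markers, 2 models share a symbol and both were counted. Alternatives were pseudocounts of 1 and 0.01, the filter left out or set at 1 FPKM, TPM, median-of-ratios and quantile scaling, only the 6 libraries, array weights, no trend, a replicate block, EIF1AY as a covariate and each library left out. Columns of other series or of the authors' own comparisons were not used.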

Additional observations from a re-analysis of the deposited data

How the results depend on the processing

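The count of called genes moved with the settings. Beside 194 (127 higher, 67 lower), it was 67 (46 and 21) with a pseudocount of 1, 458 (291 and 167) without a filter on low FPKM and 334 (228 and 106) with array weights, and it ranged from 186 to 333 with a library left out (109 to 223 higher and 63 to 127 lower), the highest count being without low-iron 3. Of the 194 genes 63, 175 and 170 stayed called under the first 3 of these settings. The split of higher against lower turned with the scaling, at 105 and 80 by median-of-ratios, 85 and 100 by quantile normalization and 146 and 59 by TPM. Low-iron and high-iron libraries share the animal numbers 2 and 7, but no label pairs these animals, and their deviations from the group means correlated at only 0.02 for each number. With that replicate block the contrast rested on the livers numbered 2 and 7 alone. Low-iron 3 and high-iron 8 share no number with the other diet and added nothing to it. Almost no residual degrees of freedom were left, so the counts of that fit cannot be set against the main ones. It called 459 genes (263 higher, 196 lower), 119 of the 194 among them. In the same fit TFRC fell to -0.98 and under the fold threshold, while HAMP was at 0.20. For TFRC the log2 fold change lay between -2.22 and -1.13 with a library left out and missed the p threshold without low-iron 2, low-iron 3, high-iron 7 or high-iron 8. For HAMP it lay between 0.26 and 2.79 and passed without low-iron 7. The other named genes kept their sign under every alternative run, over 1927 refits, of which 129 lost and 37 gained a call. Many of these genes were named for a small p or a call, so a kept sign was largely set by that choice and says nothing of the other genes. The count of genes at an adjusted p under 0.05 was 0, and 1 with the 6 libraries alone or without control 4. With 3 livers a group the 2.39-fold difference of HAMP was not resolved, and causes of these shifts were not tested.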
